A study of Mus musculus with 8 samples.

Results

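The miRNAs numbered miR-6896 to miR-7094 are a run of mouse miRNA names most of whose hairpins lie in introns and end where the intron ends. Mature miRNA names with a number in this range, an arm suffix (5p or 3p) and at least 8 reads summed over the 8 small RNA libraries were taken as members, which gave 138 members of 1624 mature names in all. The names were thus chosen by number and by their summed reads, and the tissue was not used. The libraries came from mesenchymal stromal cells (MSCs, stromal cells that can form fat cells or fibroblasts) of untreated male C57BL/6J mice aged 8 weeks. The cells were sorted by FACS as negative for the endothelial marker CD31 and the blood cell marker CD45 and positive for SCA1, and were grown for 4 days. Libraries 5 to 8 were from pancreas (pMSCs) and libraries 13 to 16 from inguinal white adipose tissue (iwatMSCs), each from pooled mice. Both tissues were taken from the same mice, but the labels do not pair the pools, which were compared as independent groups. A library is thus not 1 animal, and the p-values measure the spread between pools.

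Mirtrons are miRNAs made from introns. In the canonical pathway the nuclease Drosha cuts a hairpin out of a long transcript, whereas the splicing machinery frees a mirtron, either as a whole short intron or as a hairpin at the 3′ end of a longer intron whose 5′ tail is trimmed. Dicer then cuts the hairpin into a 5p and a 3p arm, of which 1 is loaded into an Argonaute protein and finds its targets mainly through the seed, bases 2 to 8. Because the 3p arm of such a hairpin ends at the splice acceptor, it carries the pyrimidine-rich stretch and the closing AG of an intron.

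The members took few reads. Each library held between 7789990 and 10538022 reads of mature miRNAs, of which 597 to 1035 belonged to the members in pMSCs and 614 to 988 in iwatMSCs, or 0.00695% to 0.0115% of the mature reads over all 8 libraries. pMSCs library 7 stood apart in the deposited score called TPM, which was 1 for each of the 118 members detected there, whereas its read counts ranged up to 111 reads for a member and lay among those of the other libraries. The tissue means in the study's supplement matched the deposited scores of 58 of 58 names only when library 7 was left out. The tests therefore used pMSCs libraries 5, 6 and 8 and iwatMSCs libraries 13 to 16, with all 8 libraries as an alternative. The mesenchymal miRNAs checked were miR-199a, miR-199b, miR-214, miR-143 and miR-145a, both arms. They summed to between 63771 and 78960 CPM in pMSCs and between 45443 and 54544 CPM in iwatMSCs. CPM are read counts scaled to the library's mature reads with TMM factors. Most of the pMSCs sum was miR-143-3p, at 44734 to 61443 CPM, against 13467 to 17515 CPM in iwatMSCs. By log2 fold change the other arms were split, with both arms of miR-145a higher in pMSCs and both arms of miR-199a and miR-214 lower. No arm of the list passed the threshold as lower. In iwatMSCs libraries 13 to 16, miR-199a-3p had 81133, 85531, 326 and 982 reads, and miR-199b-3p had 1026, 1018, 65817 and 72769. The reads thus changed places between these names within iwatMSCs, so the fold change of either name alone does not describe the tissue. miR-214-3p had 182370 reads in library 15 and at most 42123 in the other iwatMSCs libraries. The miRNAs of blood cells (miR-142a and miR-223) summed to at most 0.678 CPM in pMSCs and 4.84 CPM in iwatMSCs. The endothelial miR-126a summed to between 218 and 417 CPM in pMSCs and between 196 and 353 CPM in iwatMSCs.

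Mature sequences were found in RefSeq (GRCm38.p6) for 124 of the 138 members. The 14 without one were miR-6950-3p, miR-6952-3p, miR-6953-3p, miR-6954-3p, miR-6954-5p, miR-6956-3p, miR-6970-3p, miR-6970-5p, miR-6971-3p, miR-6979-3p, miR-7029-3p, miR-7040-3p, miR-7040-5p and miR-7042-5p. The sequences below are those of the 5 most abundant members and of both arms of miR-6969, of which the 3p arm differed between the tissues, with the seed in capitals.
miR-7025-3p: cAGCACAAcuccagcucaccag
miR-6944-3p: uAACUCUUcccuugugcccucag
miR-6933-5p: uGGCGGCAgucaggauaccugu
miR-6963-3p: uGCCUCUUgccuccaucccacag
miR-6960-5p: cAGGAUGAgaagaguuuggcug
miR-6969-3p: uGUUGUUCccaucucugcag
miR-6969-5p: cAGCAGAGuagggagcaaaaga

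The hairpins of miR-6944, miR-6969 and miR-7025 stand for the 3 kinds of place described next, and the mature arms are in capitals. Mir6944 is a whole intron of Dbn1 on the minus strand (chr13:55477681-55477776), Mir6969 is the end of an intron of Clps on the minus strand (chr17:28558441-28558501), and Mir7025 lies across an exon border of Pdgfra on the plus strand (chr5:75176831-75176904).
Mir6944: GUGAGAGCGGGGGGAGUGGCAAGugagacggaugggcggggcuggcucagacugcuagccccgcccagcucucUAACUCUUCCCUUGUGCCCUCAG
Mir6969: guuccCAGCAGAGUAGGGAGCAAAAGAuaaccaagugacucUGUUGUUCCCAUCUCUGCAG
Mir7025: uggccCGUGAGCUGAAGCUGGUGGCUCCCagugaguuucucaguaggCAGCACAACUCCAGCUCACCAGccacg

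Nearly all members came from hairpins at the end of an intron. Of 100 member hairpins with a place in RefSeq, 96 ended within 10 nt of a splice acceptor of GENCODE M21, and 91 of them ended exactly on the last base of the intron. Of 825 hairpins outside the number range by their gene symbol, 43 (5.21%) ended within 10 nt of an acceptor. The hairpins of miR-6967, Gm27775 and Gm27740, have symbols without a miRNA number and were counted in both sets. The member hairpins were of both mirtron forms. Both ends lay within 10 nt of splice sites, here called a whole intron, in 9 of the 100 hairpins, against 8 of the 825 others (0.970%). These 9 introns were 73 to 137 nt long. In 87 of the 100 only the 3′ end lay at an acceptor, with a 5′ tail of 11 to 36205 nt (median 338 nt) between the donor and the hairpin. The 9 whole introns belonged to Dbn1, Dennd6b, Hspg2, Hip1r, Tmem120a, Fbrs, Cherp, Gm38431 and Dnase1l1. Not all matched the intron exactly: the hairpin in Hip1r began 8 nt and that in Tmem120a 7 nt after the donor. The hairpin in Gm38431, which also lay within Raver1, began just before the donor, in the exon.

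**Figure D1:**
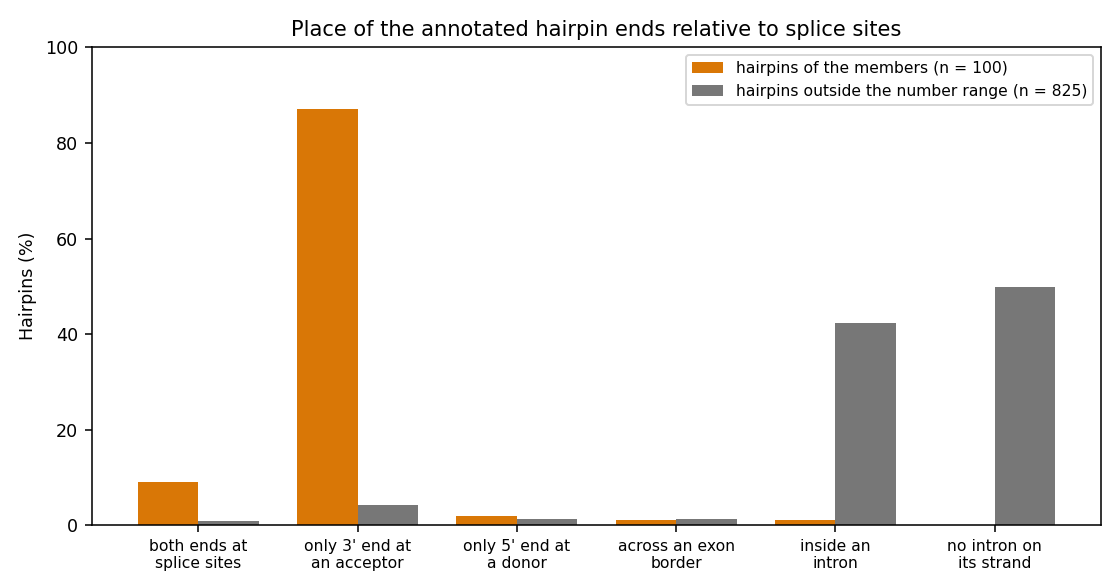
Percentage of hairpins (y axis) by the place of their annotated ends relative to splice sites (x axis), for the 100 member hairpins (orange) and the 825 hairpins outside the number range (grey). The bars for a 3′ end at an acceptor stand at 87.0% for the member hairpins and 4.24% for the others, while 49.8% of the others lay in no intron of their strand. The hairpins of miR-6967 were counted in both sets.

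The remaining 4 member hairpins lay elsewhere. Mir6927 in Mllt6 and Mir6936 in Sirt7, the gene of a nuclear deacylase, began at a donor, and Mir7036b lay inside an intron of Add1, which encodes the membrane skeleton protein adducin. Mir7025 began in an exon of Pdgfra, the gene of a platelet-derived growth factor receptor that marks stromal cells. The first 30 of its 74 bases were exonic, the 3p arm began 17 nt after the end of the exon, and the hairpin ended 740 nt before the acceptor. Of all hosts, only Ankrd52 held 2 member hairpins, Mir6914 and Mir6915.

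The sequences of the members matched these places. Of 54 members of the 3p arm with a place, 41 (75.9%) ended on the last base of the intron. Of 57 members of the 3p arm with a sequence, 44 (77.2%) ended in AG, against 42 of 404 3p arms outside the number range (10.4%), and their median share of C and U was 72.7%, against 54.5%. Members of the 5p arm were rich in G, with a median share of 44.0%, against 27.3% in 5p arms outside the range. The start GUGAG, with which many introns begin, was found in 7 of 67 members of the 5p arm and in 3 of 372 others. These features are annotation and describe the names. The libraries entered through the minimum of summed reads, which decided the names of the range that were members. No such minimum was set for the names outside the range.

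Few members shared a seed. Among the 124 with a sequence, 4 pairs had the same bases 2 to 8, and they are shown because a shared seed can give shared targets.
miR-6904-5p: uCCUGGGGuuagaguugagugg
miR-6914-5p: uCCUGGGGuggugguggccacaga
miR-6922-5p: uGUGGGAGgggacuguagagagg
miR-7008-5p: uGUGGGAGaugccaggagccguac
miR-6935-3p: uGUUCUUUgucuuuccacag
miR-7092-3p: uGUUCUUUguuuuguuugccuuag
miR-6927-5p: gUGAGGGGauccagcccaggcu
miR-7070-5p: gUGAGGGGagcugaggcagga

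The members of these pairs had few reads, from 10 summed over the libraries for miR-6922-5p to 55 for miR-7070-5p. Among miRNAs outside the range with at least 1000 summed reads, miR-18a-3p shared its seed with miR-7069-3p and miR-540-3p with miR-6915-5p. These partners were far more abundant, with 162 reads of miR-7069-3p against 2504 of miR-18a-3p, and 58 reads of miR-6915-5p against 4471 of miR-540-3p. None of the 124 members with a sequence shared a stretch of 16 nt with another mature name whose sequence was found. The mature sequence of 21 members was also found in an annotated transcript of another type than the hairpin, mostly a retained intron of the host, so that fragments of such transcripts and mature miRNAs cannot be told apart from the counts. Among the members described below this held, for example, for miR-6958-3p, miR-6992-5p, miR-7068-5p, miR-7035-3p and both arms of miR-7037, each in a retained intron, and for miR-7084-5p, in a coding transcript of Elof1. Only annotated transcripts were searched, and introns outside them were not. The same limit can therefore hold for the other members, most of whose hairpins lie in introns.

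Reads were concentrated in a few members. The median member had 21 reads summed over the 8 libraries, 109 of the 138 had fewer than 50, and 10 had more than 100. The 2 most abundant, miR-7025-3p and miR-6944-3p, took 27.2% of the members' 6631 reads, and the 10 most abundant took 48.2%. Members averaged between 0.107 and 12.9 CPM over the 8 libraries, with a median of 0.299 CPM, against a median of 1.42 CPM over all mature miRNAs tested. At the threshold of the rule, 7 members had 8 summed reads, among them miR-6909-5p and miR-7075-3p, and 12 names with 7 summed reads, among them miR-6909-3p and miR-7002-3p, fell just outside. Of the 312 names in the number range, 143 had 1 to 7 reads and 31 had none.

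The members were detected to a like extent in both tissues. Between 112 and 127 members had at least 1 read in a pMSCs library, and between 106 and 121 in an iwatMSCs library, and 56 members were detected in all 8. Their summed level was 86.0, 105, 87.2 and 107 CPM in pMSCs libraries 5, 6, 7 and 8, against 80.1, 75.5, 105 and 95.4 CPM in iwatMSCs libraries 13, 14, 15 and 16. The groups overlapped, with 99.4 ± 11.7 CPM in pMSCs without library 7 (SD, n = 3) and 89.0 ± 13.6 CPM in iwatMSCs (SD, n = 4). Without miR-7025-3p and miR-6944-3p the sum was 72.1 ± 6.00 CPM in the same pMSCs libraries (SD, n = 3) and 64.0 ± 2.93 CPM in iwatMSCs (SD, n = 4). The mirtron miRNAs outside the number range that were checked (miR-877, miR-1224 and miR-702) summed to 225 to 287 CPM in pMSCs and 75.6 to 294 CPM in iwatMSCs. Most of that was miR-877-5p, with a mean of 173.8 CPM, while miR-1224-5p averaged 0.331 CPM, and none of the 5 of their arms tested passed the threshold.

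miR-7025-3p was the most abundant member and varied most. It had 84, 89, 45 and 160 reads in pMSCs libraries 5 to 8, against 72, 44, 301 and 138 reads in iwatMSCs libraries 13 to 16. The reads of the pMSCs libraries lay within the range of the iwatMSCs libraries, and library 15 exceeded the mean of the other iwatMSCs libraries 3.36-fold in CPM. The average was 12.6 ± 3.79 CPM in pMSCs (SD, n = 3) and 15.1 ± 11.95 CPM in iwatMSCs (SD, n = 4), with a log2 fold change of -0.26 ± 0.56 (SE) and an adjusted p of 0.848 in edgeR. Without library 15 the log2 fold change was 0.40, with an adjusted p of 0.668. Its 5p arm, which lies in the exon, had 0 reads in all libraries.

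miR-6944-3p, from the Dbn1 intron (Dbn1 encodes drebrin, which binds actin filaments), was the other abundant member. It had 60, 194, 111 and 153 reads in pMSCs libraries 5 to 8, against 96, 56, 92 and 109 reads in iwatMSCs libraries 13 to 16. The lowest pMSCs library lay within the iwatMSCs range and the others above it. The average was 14.7 ± 5.63 CPM in pMSCs (SD, n = 3) and 9.81 ± 2.15 CPM in iwatMSCs (SD, n = 4), and the difference did not pass the threshold (log2 fold change 0.55 ± 0.34 SE, adjusted p = 0.420, edgeR).

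The other 10 of the 12 most abundant members also overlapped between the tissues. miR-6933-5p, from Pgs1, the gene of an enzyme of mitochondrial lipid synthesis, had 29, 44, 27 and 58 reads in pMSCs libraries, against 41, 28, 26 and 36 in iwatMSCs libraries. miR-6963-3p, from Itga5, the gene of a fibronectin receptor subunit, had 16, 37, 33 and 53 reads in pMSCs libraries, against 16, 26, 18 and 36 in iwatMSCs libraries. miR-6960-5p, from Troap, had 26, 25, 23 and 18 reads in pMSCs libraries, against 34, 16, 20 and 26 in iwatMSCs libraries. None of these 3 stood apart in either tissue, with log2 fold changes of 0.37 ± 0.33 for miR-6933-5p, 0.47 ± 0.46 for miR-6963-3p and -0.04 ± 0.40 for miR-6960-5p (SE). The rest were miR-6948-3p, miR-7069-3p (Farsa, a subunit of a tRNA synthetase), miR-6958-3p (Dennd6b), miR-6940-3p (Cep170b), miR-6992-5p (Stx5a, a syntaxin of the Golgi), miR-7018-3p (Hspg2, the basement membrane protein perlecan) and miR-6900-3p. Their log2 fold changes lay between -0.47 for miR-6900-3p and 0.50 for miR-6992-5p, and their adjusted p between 0.649 and 0.995 in edgeR.

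**Figure D2:**
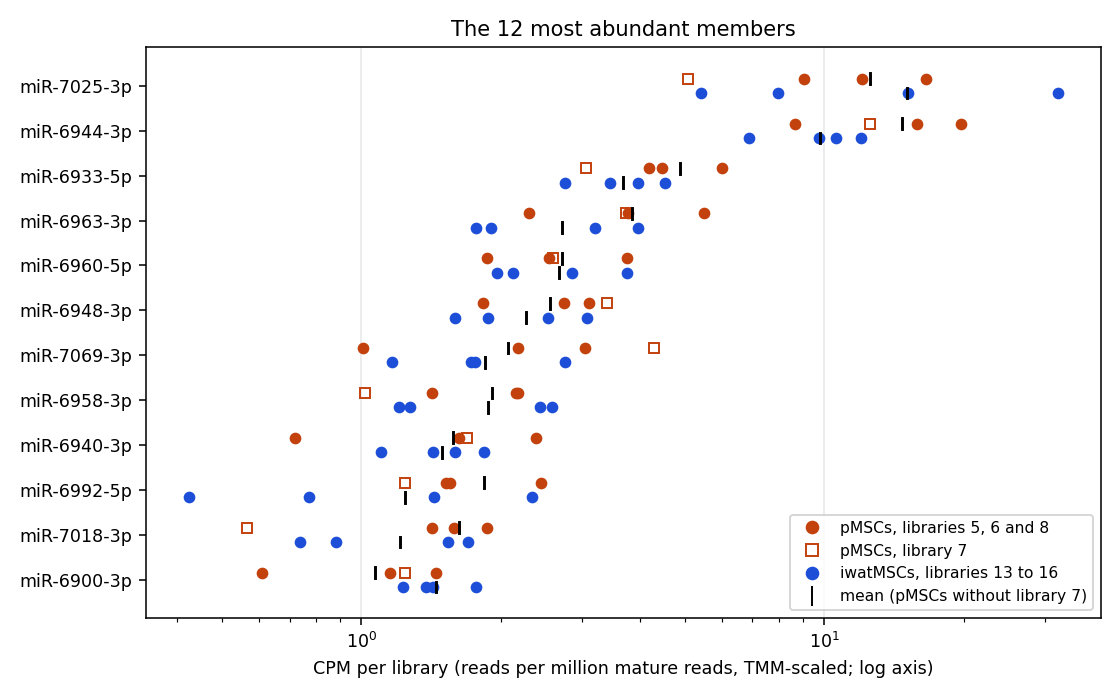
CPM per library on a log axis (x axis) of the 12 members with the highest mean level (y axis), with pMSCs libraries in orange above iwatMSCs libraries in blue, library 7 as an open square and means as black ticks. The tissues overlap for each of the 12, and miR-7025-3p spans 5.41 to 31.9 CPM within iwatMSCs.

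Spread within a tissue exceeded counting error at the median member with enough reads to tell. Among members with a mean of at least 3 reads, the variance over that of Poisson counting had a median of 1.55 over 65 members in pMSCs and of 1.40 over 60 members in iwatMSCs. It was highest for miR-7025-3p in both tissues, at 20.3 in pMSCs and 83.4 in iwatMSCs. The next was miR-6944-3p at 12.7 in pMSCs and miR-7070-3p at 5.97 in iwatMSCs.

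Of the 138 members, 1 differed between the tissues. miR-6969-3p rose in pMSCs, which is 0.725% of the members, while 2.65% of the 1244 mature miRNAs tested were called higher in pMSCs and 2.73% lower, or 5.39% and 67 calls in all (edgeR quasi-likelihood test, adjusted p under 0.05). With all 8 libraries miR-6969-3p was again the 1 member called, while 3.46% of all miRNAs tested were called higher and 2.98% lower, or 6.45% in all. No member fell under either choice of libraries. At an unadjusted p under 0.05 there were 4 members higher and 1 lower, or 3.62% of the members, against 15.8% of all miRNAs tested, and DESeq2 and limma called no member lower either. The median standard error of a member's log2 fold change was 0.95. The members' log2 fold changes had a median of 0.09, with 74 above 0 and 64 below, beside a median of -0.08 over all miRNAs tested. Without TMM factors the median of all miRNAs moved by -0.11 and that of the members to -0.02, a shift common to both. The median of the members stood 0.17 above that of all miRNAs, a gap that ranged from 0.09 without iwatMSCs library 14 to 0.27 without pMSCs library 8.

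**Figure D3:**
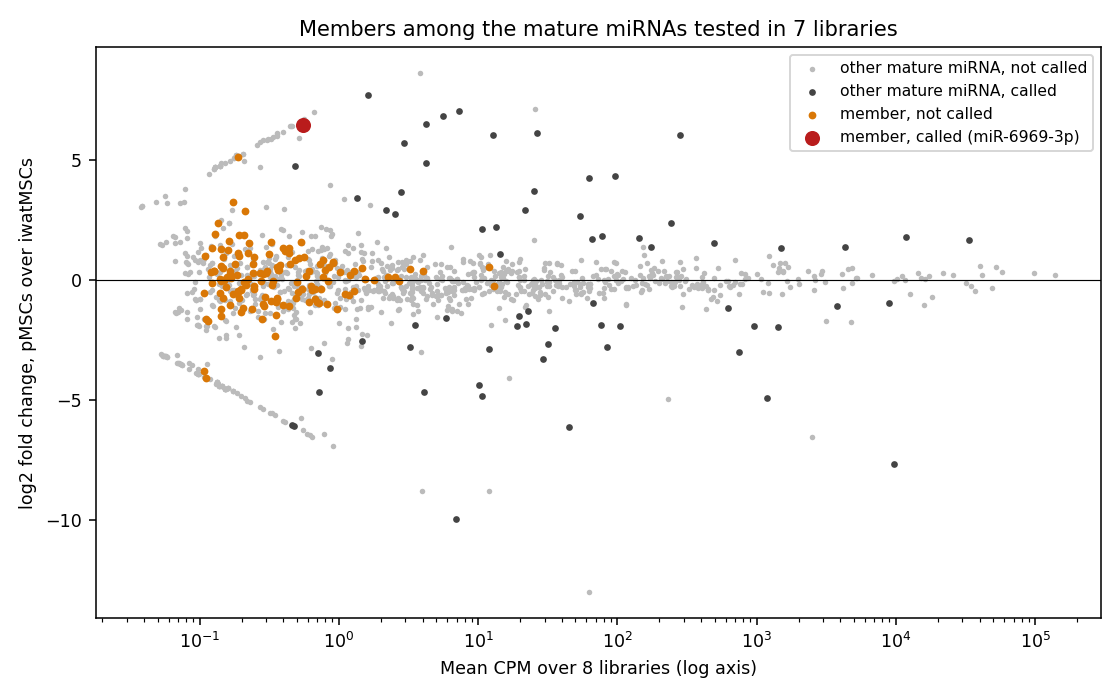
log2 fold change of pMSCs over iwatMSCs (y axis) against the mean CPM on a log axis (x axis) for the 1244 mature miRNAs tested in 7 libraries, with members in orange and the called member in red. The members lie at low levels around 0, apart from miR-6969-3p at 6.46, and the slanted lines of points at the left are miRNAs with 0 reads in 1 tissue.

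miR-6969-3p and its 5p arm were found in pMSCs alone. miR-6969-3p had 11, 11, 6 and 10 reads in pMSCs libraries 5 to 8, against 0 reads in each of iwatMSCs libraries 13 to 16. miR-6969-5p had 7, 4, 0 and 1 reads in pMSCs libraries, against 0 in each iwatMSCs library. For the 3p arm the groups did not overlap, and for the 5p arm pMSCs library 7 was at 0 like the iwatMSCs libraries. Their host, Clps, encodes colipase, a cofactor of pancreatic lipase that acinar cells secrete, and the hairpin takes the last 61 bases of a 320-nt intron.

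The level of miR-6969-3p was 1.25 ± 0.295 CPM in pMSCs without library 7 (SD, n = 3). With a floor of 3 reads over the iwatMSCs libraries, its observed reads were 13.1-fold higher in pMSCs, or 11.7-fold with library 7 included. The fitted log2 fold change was 6.46 ± 0.94 (SE, adjusted p = 0.0225, edgeR), a value that depends on the prior count because of the zeros, and with all 8 libraries the adjusted p was 0.00947. The call was lost when any 1 of pMSCs libraries 5, 6 or 8 was left out, with adjusted p of 0.0934, 0.0910 and 0.0853. miR-6969-5p did not pass the threshold (adjusted p = 0.180, edgeR). By the same floor its 12 observed reads were 4.91-fold higher in pMSCs, or 3.68-fold with library 7 included, and 7 of them came from library 5. All reads of both arms were from pMSCs, so both met the minimum of 8 summed reads through that tissue alone.

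A separate line of the table, typed as hairpin and named for miR-6969-3p, had 87, 88, 33 and 37 reads in pMSCs libraries 5 to 8, against 0, 3, 0 and 0 reads in iwatMSCs libraries 13 to 16. It was higher in each pMSCs library than in each iwatMSCs library, as the mature line was. What the authors' pipeline counted as hairpin is not given in the sources used here.

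As a sum, miRNAs of exocrine pancreas were also higher in pMSCs. The 8 arms of miR-216a, miR-216b, miR-217 and miR-802, miRNAs of acinar cells, summed to 61.8, 34.1, 12.2 and 20.3 CPM in pMSCs libraries 5 to 8, against 0.884, 0.738, 1.27 and 0.660 CPM in iwatMSCs libraries 13 to 16. Library 5 was highest and library 7 lowest among the pMSCs libraries for this sum. miR-6969-3p stood at 1.58 and 0.678 CPM in these libraries. Its variance over that of Poisson counting was 0.998 in pMSCs, so its order of libraries did not exceed counting error. Of the 8 arms 4 rose in pMSCs: miR-216a-5p, miR-216b-5p, miR-217-5p and miR-802-5p, the last with 186, 158, 43 and 102 reads in pMSCs libraries, against 1, 3, 0 and 0 in iwatMSCs libraries. The lowest of the list, miR-216b-3p, had 0, 0, 0 and 3 reads in pMSCs libraries, against 1, 0, 4 and 1 in iwatMSCs libraries. The epithelial list (miR-200a, miR-200b, miR-200c, miR-141 and miR-429) summed to 243 to 595 CPM in pMSCs, against 13.1 to 21.3 CPM in iwatMSCs, with 7 of 9 arms tested higher, and the islet miRNA miR-375-3p to 254 to 807 CPM in pMSCs, against 3.53 to 22.5 CPM in iwatMSCs. The part of these cell types in the level of miR-6969-3p was not tested, and in bulk libraries fewer cells of a type and less RNA per cell cannot be told apart.

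**Figure D4:**
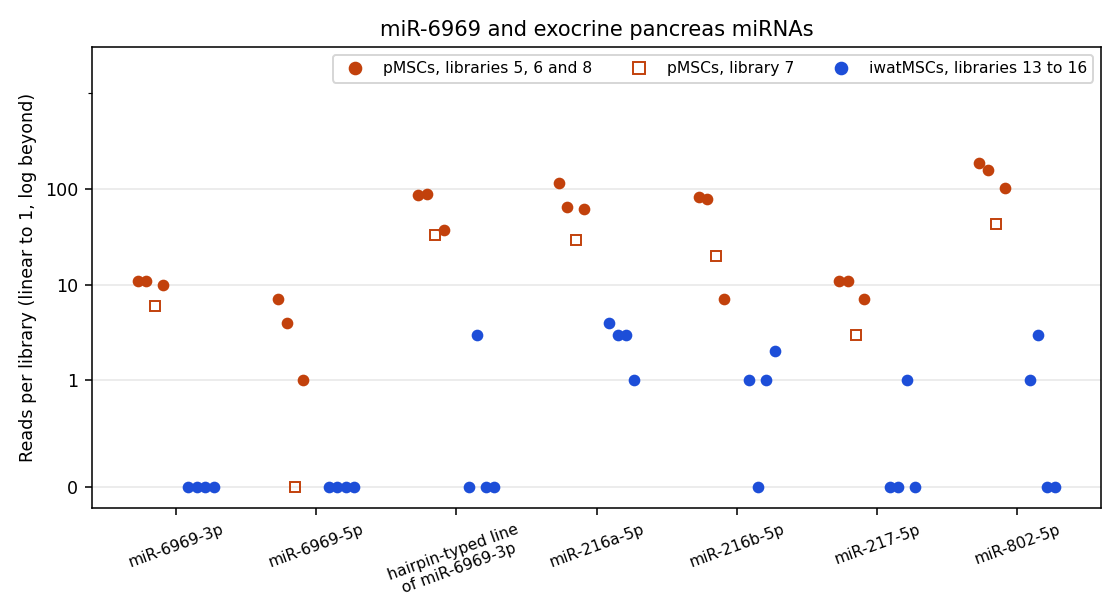
Reads per library (y axis, linear to 1 and log beyond) of both arms of miR-6969, its hairpin-typed line and 4 exocrine pancreas miRNAs (x axis), with pMSCs libraries in orange to the left of iwatMSCs libraries in blue and library 7 as an open square. miR-6969-3p lies at 6 to 11 reads in pMSCs and at 0 in iwatMSCs.

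The third member absent from a tissue was miR-7037-3p, from Ints1, the gene of a subunit of the Integrator complex that processes small nuclear RNAs. It had 0 reads in each pMSCs library, against 0, 1, 2 and 5 reads in iwatMSCs libraries 13 to 16. The groups overlapped at 0, and with 8 reads in all the difference did not pass the threshold (adjusted p = 0.329, edgeR). All its reads were from iwatMSCs, so it met the minimum of 8 summed reads through that tissue alone.

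Among members with a mean of at least 5 reads in the higher tissue, the next highest log2 fold changes after miR-6969-3p belonged to miR-7084-5p, miR-7068-5p, miR-6927-5p and miR-7031-5p. miR-7084-5p, from Elof1, the gene of a transcription elongation factor, had 5, 10, 2 and 11 reads in pMSCs libraries, against 1, 1, 4 and 5 in iwatMSCs libraries (log2 fold change 1.59 ± 0.69 SE, adjusted p = 0.310, edgeR). miR-7068-5p, from a whole intron of Cherp, had 3, 10, 2 and 7 reads in pMSCs libraries, against 1, 1, 5 and 3 in iwatMSCs libraries (1.34 ± 0.71 SE). Neither passed the threshold. In CPM miR-7068-5p overlapped between the tissues, and miR-7084-5p did so only through library 7, at 0.226 CPM. In reads, pMSCs library 5 and iwatMSCs library 16 tied at 5 for miR-7084-5p. miR-6927-5p (1.27 ± 0.96 SE) and miR-7031-5p (1.22 ± 0.92 SE) did not pass the threshold either.

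The lowest were miR-6959-3p, miR-7070-3p, miR-7035-3p, miR-6915-5p and miR-7040-5p. miR-6959-3p, from Sbf1, had 0, 2, 1 and 1 reads in pMSCs libraries, against 2, 6, 5 and 8 in iwatMSCs libraries (log2 fold change -2.35 ± 0.93 SE, adjusted p = 0.273, edgeR). miR-7070-3p had 1, 12, 5 and 4 reads in pMSCs libraries, against 5, 5, 24 and 16 in iwatMSCs libraries (-1.19 ± 0.82 SE). Both missed the threshold. The levels of miR-7070-3p overlapped between the tissues, while those of miR-6959-3p lay at 0 to 0.203 CPM in pMSCs, below the 0.221 to 0.879 CPM in iwatMSCs. In reads, pMSCs library 6 and iwatMSCs library 13 tied at 2 for miR-6959-3p. miR-7040-5p had 3, 7, 2 and 4 reads in pMSCs libraries, against 8, 7, 10 and 11 in iwatMSCs libraries (-0.97 ± 0.51 SE, adjusted p = 0.382, edgeR). Its levels in CPM did not overlap either, with 0.226 to 0.712 CPM in pMSCs and 0.861 to 1.21 CPM in iwatMSCs, though the difference missed the threshold. In reads, pMSCs library 6 and iwatMSCs library 14 tied at 7 for miR-7040-5p. Members outside these lists did not overlap in CPM either. For example, miR-6899-3p lay at 0.622 to 1.58 CPM in pMSCs, above 0.330 to 0.615 CPM in iwatMSCs. miR-7041-3p lay at 0.113 to 0.311 CPM in pMSCs, below 0.318 to 0.861 CPM in iwatMSCs. How many of the members, or of all miRNAs tested, did not overlap between the tissues was not counted.

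The 3p arm took more reads than the 5p arm. The 67 members of the 3p arm held 4493 reads, 67.8% of the members' reads, and the 71 of the 5p arm held 2138. In pMSCs without library 7 the 3p members summed to 65.3 ± 11.8 CPM and the 5p members to 34.1 ± 1.62 CPM (SD, n = 3), and in iwatMSCs to 61.8 ± 12.2 CPM and 27.2 ± 2.63 CPM (SD, n = 4). The 5p sums of these pMSCs libraries lay above those of iwatMSCs, and library 7, at 29.5 CPM, lay within the iwatMSCs range of 23.7 to 30.1 CPM.

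For 26 hairpins both arms were members, and 16 had more reads of the 3p arm and 10 of the 5p arm. miR-6944 was the most one-sided, with 871 reads of the 3p arm and 13 of the 5p arm (98.5% 3p), and the 3p arm was higher in 8 of 8 libraries. miR-6963 had 235 and 22 reads (91.4% 3p), again with the 3p arm higher in 8 of 8. The bias ran the other way for miR-7042, with 19 reads of the 3p arm and 73 of the 5p arm, the 5p arm being higher in 8 of 8 libraries, and for miR-7037, with 8 and 31 reads. The whole introns differed too: miR-7018 had 92 reads of the 3p arm and 51 of the 5p arm (64.3% 3p), and miR-7034 had 36 and 14 (72.0% 3p). The Ankrd52 hairpins went opposite ways, with 61 and 28 reads of the 3p and 5p arm of miR-6914 and 45 and 58 reads of those of miR-6915.

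**Figure D5:**
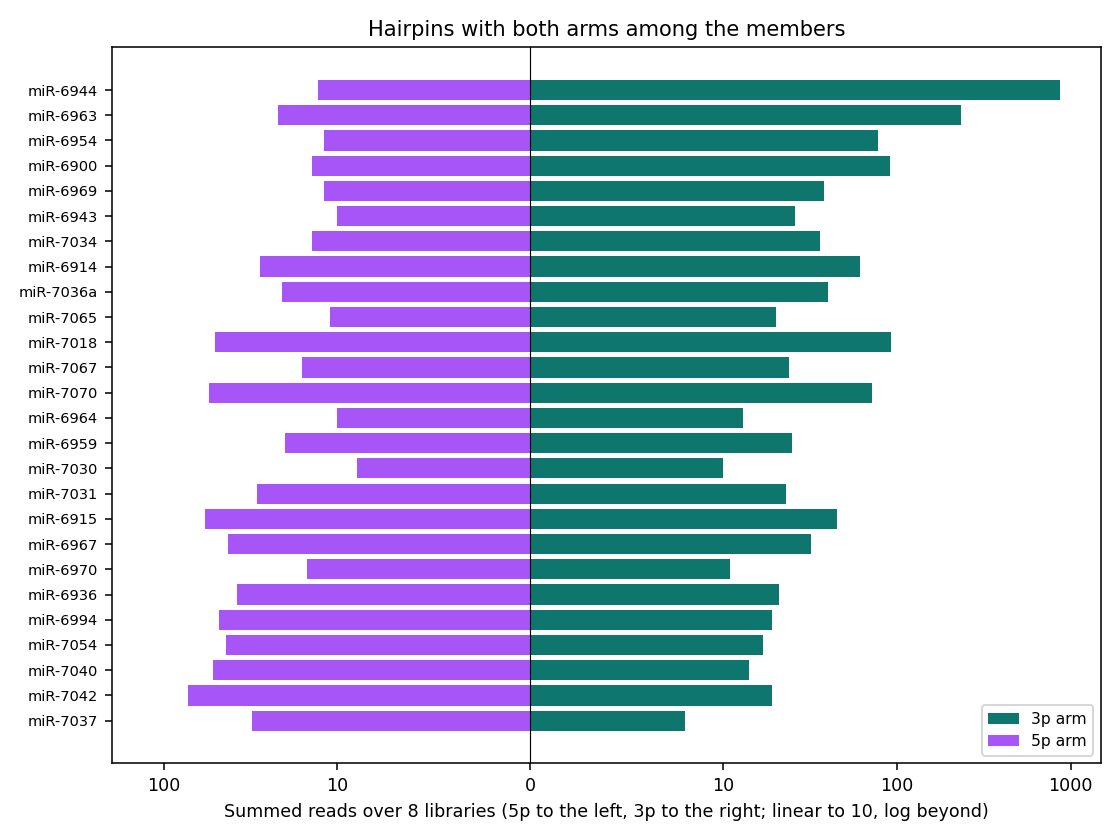
Summed reads over the 8 libraries (x axis, linear to 10 and log beyond) of the 5p arm to the left and the 3p arm to the right for the 26 hairpins with both arms among the members (y axis), ordered by the share of the 3p arm. The order runs from miR-6944 with 98.5% of reads on the 3p arm to miR-7037 with 20.5%.

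Both hairpin forms held abundant and rare members. The 12 members from whole introns summed to 1301 reads, of which 871 were miR-6944-3p, and had a median of 29 reads each. The 102 members from hairpins with only the 3′ end at an acceptor summed to 3441 reads, with a median of 19 and a highest of 289 for miR-6933-5p. The 12 summed to 21.8 ± 6.10 CPM in pMSCs (SD, n = 3) and 15.4 ± 1.89 CPM in iwatMSCs (SD, n = 4), and the 102 to 51.7 ± 4.36 CPM in pMSCs (SD, n = 3) and 45.3 ± 2.89 CPM in iwatMSCs (SD, n = 4). The groups overlapped for the whole introns, where pMSCs library 5 stood at 15.3 CPM and iwatMSCs library 16 at 17.0 CPM. They overlapped for the 102 as well, with the same libraries at 46.7 and 49.1 CPM.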

How the data were processed

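Small RNA was measured in 8 libraries. The read count of each small RNA was deposited by the authors, whose provider (BGI) made it from libraries with unique molecular identifiers; per the labels Bowtie2 was used, and its version, the genome build and the miRBase release are not given in the sources used here. The score called TPM by the authors is deposited as a whole number that never exceeds the count, with 0.001 in place of 0, and its sums differ between libraries. All 16 value columns were read. Mature miRNAs whose mean count reached 1 in either tissue entered the edgeR 4.0.16 test in R 4.3.3 (TMM, two-sided quasi-likelihood F test on tissue), and p-values were adjusted over all of them by Benjamini-Hochberg at 0.05. Approximate standard errors were derived from each log2 fold change and its F statistic. DESeq2 1.42.0 and limma 3.58.1 served as alternatives, and the fits were tested on simulated data. CPM used TMM factors over all 8 libraries. The floor for a tissue at 0 was 3 reads over its libraries, which covers counting error only. Fold values at the floor used the observed reads of the other tissue and no TMM factors, so they are not lower bounds. Hairpins and mature sequences came from RefSeq GRCm38.p6 and splice sites from GENCODE M21, read with Python 3.11.15 (numpy 2.4.6, pandas 2.3.3, matplotlib 3.10.9), with a window of 10 nt. Coordinates are those of the annotation. Named were members called with 7 or 8 libraries, the 12 most abundant, the 5 highest and 5 lowest log2 fold changes at a mean of at least 5 reads, pairs of arms, shared seeds, members at 0 in a tissue and names at the threshold. The members and lists were chosen with earlier results of these data known.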

Additional observations from a re-analysis of the deposited data

Results flagged for a closer look

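The table also held lines typed as hairpin, which entered no test, and those named for the members carried more reads than the mature lines. They summed to 12368 reads over the 8 libraries, against 6631 reads of the mature lines, and 137 of the 138 members had at least 1 such read (a count of 0 would allow up to 3). The hairpin-typed line exceeded the mature line for 77 of 138 members. The line for miR-6944-3p had 3574 reads, beside 871 mature reads. The line for miR-6988-3p had 1011 reads, beside 86. For miR-7025-3p it was lower, at 492 against 933 reads, with 63, 41, 37 and 51 reads in pMSCs libraries 5 to 8 and 33, 27, 178 and 62 in iwatMSCs libraries 13 to 16, so that library 15 was highest in this line as well. No library of the 23 members with a fold change, or of the summed members, stood apart from the other 3 of its tissue by Dixon's criterion in any of 48 groups of 4, where chance alone flags about 5% of groups.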

How the results depend on the processing

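Of the 336 fold changes of 23 members under the alternatives, 307 kept their direction and side of the threshold, and none of the 25 that changed sign passed it. miR-6969-3p was called under each alternative except without pMSCs library 5, 6 or 8, and its log2 fold change ranged from 6.31 to 6.58 with 1 library left out. Leaving out 1 library, the number of members higher in pMSCs ranged from 0 to 1, all miRNAs higher from 24 to 34 and lower from 18 to 31. With limma on the deposited score at a pseudocount of 0.5 there were 2 members higher, since miR-6969-5p was also called (log2 fold change 2.89). DESeq2 called 57 miRNAs higher and 56 lower. A minimum of 3 reads left a median of 83 members detected in pMSCs libraries 5, 6 and 8 and 68 in iwatMSCs libraries. With 1 read the medians were 116 and 114.5, and all names of the range gave 157 and 153.5. With library 7 included, the pMSCs medians were 75 with 3 reads, 117 with 1 read and 161 for all names of the range. The sign changed, near 0, for miR-6960-5p with all 8 libraries (0.0011), DESeq2 size factors (0.0155), DESeq2 (0.0052), no filter (0.0127) and a mean of at least 10 reads (0.0013), for miR-6958-3p with DESeq2 size factors (0.037), DESeq2 (0.0361), limma (0.024 and 0.026 at pseudocounts of 1 and 0.5), no filter (0.0262) and a mean of at least 10 reads (0.0265), and for miR-6940-3p without TMM factors (-0.0123) and with limma (-0.0031 and -0.0139). With 1 library left out, the range was -0.52 to 0.40 for miR-7025-3p, -0.33 to 0.23 for miR-6960-5p, -0.22 to 0.44 for miR-7069-3p, -0.12 to 0.20 for miR-6958-3p and -0.33 to 0.40 for miR-6940-3p. The causes were not tested. No paired analysis was possible because the labels give no number that pairs the pools of the tissues, although both tissues came from the same mice. Depth limits the comparison: at a mean of at least 10 reads only 21 members were tested.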
